A study of Mus musculus with 12 samples.

Results

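The genes described here encode subunits of the mitochondrial respiratory chain and of ATP synthase that are carried by nuclear chromosomes, together with a few factors whose symbols share the same stems. They were read from the table of ribosome-bound RNA in CA1 pyramidal neurons of the mouse hippocampus by symbol, as every row starting with Nduf, Cox4 to Cox8, Uqcr or Atp5, or named Sdha, Sdhb, Sdhc or Sdhd. Subunits with other symbols, such as Cyc1 (cytochrome c1) of complex III, fall outside this rule. Among the 24079 rows, 92 genes matched, and 90 of them had at least 15 reads summed over the 12 libraries, among 17823 genes that did. The matching genes left out were Cox8c, a testis form of a complex IV subunit, and Ndufs5, an accessory subunit of complex I, which were both listed at 0 reads in all 12 libraries. The kept genes with the fewest reads were Cox7b2 with 70 reads and Cox6a2 with 212 reads. Of the 90 genes, 42 were counted in complex I, 4 in complex II, 8 in complex III, 19 in complex IV and 17 in complex V. The 17 include Atp5s and Atp5sl, which were placed there by symbol and are no subunits of ATP synthase. Among the 90 genes, 80 were counted as structural subunits, 7 of them as isoforms typical of other tissues or cell types (called tissue isoforms below). The remaining 10 encode assembly or associated factors.

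The respiratory chain passes electrons from NADH through complex I, and from succinate through complex II, to coenzyme Q, then through complex III and cytochrome c to complex IV, which reduces oxygen. Complexes I, III and IV pump protons across the inner mitochondrial membrane, and complex V, the ATP synthase, lets them return and makes ATP. Neurons rely on this pathway to pay for synaptic transmission and ion pumping, and the subunits come from 2 genomes, the nuclear one measured here and the mitochondrial one, for which the table held 0 rows.

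The libraries came from the hippocampi of male mice of 2 to 6 months, on the C57BL/6J background by the study's methods. All carried the Wfs1-CreERT2 transgene (a BAC transgene in which the Wfs1 promoter drives a tamoxifen-inducible Cre) and the RiboTag allele of Rpl22, so that tamoxifen (100 mg/kg on 3 days, 1 week before the tissue was taken) put an HA tag on the ribosomes of Wfs1-expressing cells, and were either wild-type for Fmr1 or Fmr1-/y. Fmr1 encodes FMRP, an RNA-binding regulator of translation whose loss causes fragile X syndrome. Each genotype had 6 libraries, each a pool of 4 to 6 mice, so a p-value measures the spread between pools. No input or untagged library was used here, so a level in the precipitate cannot be split into the amount of an mRNA, the share of it on ribosomes and the number of tagged cells, and fewer cells cannot be told apart from less RNA per cell.

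Between 39400980 and 65565479 reads per library fell on genes. Wild-type libraries held 1971 to 2608 reads of Fmr1, whereas Fmr1-/y replicate 2 held 1 and the remaining 5 held 0. All 6 markers of CA1 pyramidal neurons were measured. Their summed level in CPM (counts scaled to a common library size by edgeR's TMM method) was 8334 to 10311 for wild-type libraries. For Fmr1-/y libraries it was 8097 to 9578 CPM. Most of that sum was Camk2a, whose mean was 6207 CPM over wild-type libraries and 5826 CPM over Fmr1-/y ones. Slc1a1, also in this list, is used by the paper as a glutamatergic marker. How far the sum is specific to CA1 was not tested. Every marker of the other cell types that the hippocampus can hold was measured as well, and the summed level of the 4 choroid plexus markers reached 6211 to 11625 CPM in wild-type libraries and 8140 to 17108 CPM in Fmr1-/y libraries, so transcripts known from other cell types were counted in all libraries. The 90 genes took 1.12% to 1.37% of the reads in wild-type and 1.18% to 1.43% in Fmr1-/y libraries.

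No respiratory chain gene passed the test between the genotypes, and for most of them the difference that the data allow was small. With the test of edgeR (quasi-likelihood, Benjamini-Hochberg adjustment over all 17823 genes, threshold 0.05), 0 of the 90 genes were called, where 0.0224% of all genes tested were, and the smallest adjusted p among them was 0.539. DESeq2 called 0 of the 90, where it called 0.471% of all genes, and gave 2 of them no adjusted p. The voom method of limma also called 0. At an unadjusted p under 0.05 there were 2 genes, Cox7a1 and Ndufa4l2, both higher in Fmr1-/y libraries, which is 2.22% of the 90 beside 7.96% of all genes tested (4.29% higher and 3.67% lower). The 6 libraries of a genotype lay wholly above or below those of the other for 0 of the 90 genes, beside 0.623% of all genes (0.213% above and 0.41% below in Fmr1-/y mice).

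The precision of this comparison is given by the 95% interval of each fold change. For 73 of the 90 genes the interval lay wholly between 80% and 125% of the wild-type level. Among genes with a wild-type mean of at least 10 CPM this held for 73 of 81 respiratory chain genes (90.1%) and for 73.4% of the 9593 other genes, whose median standard error was nearly the same (0.08 on the log2 scale in each set). For 65 of the 73 subunits in general use the interval lay inside these bounds, and the widest intervals among them ran down to 82.8% and up to 129%. For the tissue isoforms, all below 10 CPM, it did so for 0 of 7.

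Although single genes did not pass, their fold changes leaned to one side. The log2 fold change (Fmr1-/y over wild-type) was above 0 for 79 of the 90 genes, 87.8% beside 51.4% of all genes tested, with a median of 0.06 beside 0.00. Among the genes of at least 10 CPM it was above 0 for 72 of 81, with a median of 0.06, beside 48.6% and a median of 0.00 for all genes of that level. The summed level of the 90 genes was 12422 ± 1241 CPM in wild-type libraries and 13002 ± 1185 CPM in Fmr1-/y libraries (mean ± SD, n = 6), and the ranges of the genotypes, 11281 to 14168 CPM and 11293 to 14120 CPM, overlapped almost fully. The genes shared their swings between libraries, described below, so their directions are not independent of each other, and the lean carries no p. It was present with each library left out, with 69 to 86 genes above 0. The median was over 1.5 times larger without wild-type replicate 1 (0.12), wild-type replicate 6 (0.11) or Fmr1-/y replicate 4 (0.11), and over 1.5 times smaller without wild-type replicate 2 (0.04) or Fmr1-/y replicate 2 (0.04). With 1 surrogate variable in the fit, 54 genes lay above 0 and the median was 0.02.

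**Figure D1:**
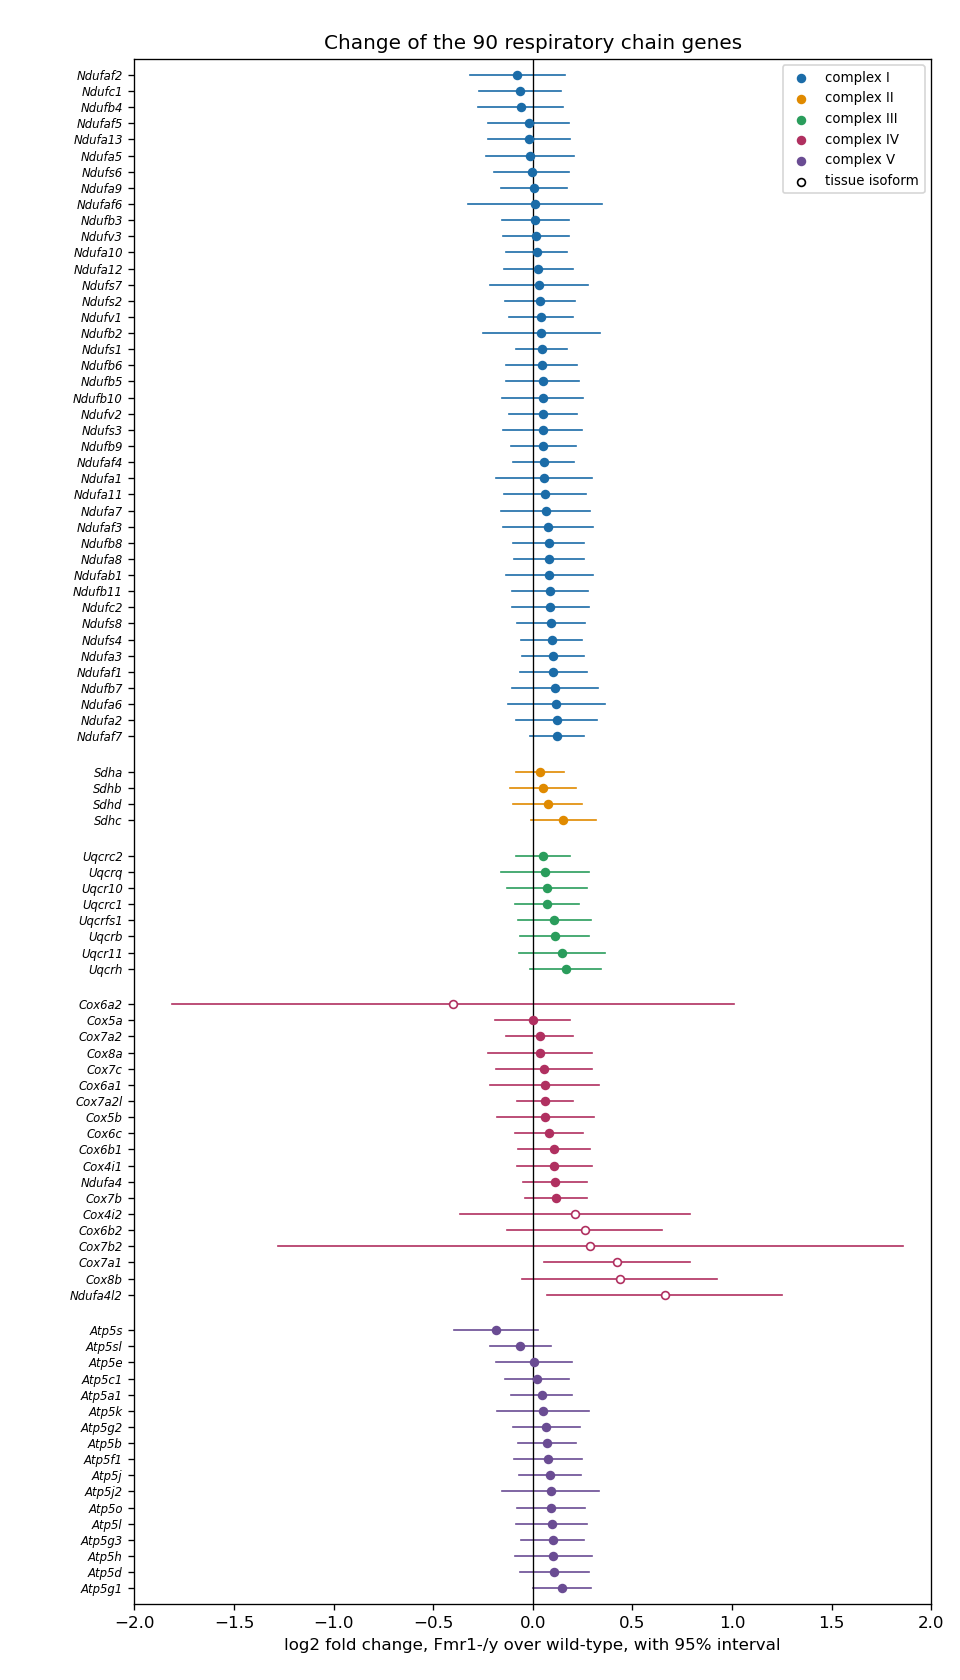
Log2 fold change of each of the 90 genes (points) with its 95% interval (lines), grouped by complex and ordered by value; open points are tissue isoforms of complex IV. Of the 90 points 79 lie to the right of 0, and the intervals of all but Cox7a1 and Ndufa4l2 span 0.

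Measured per kilobase of transcript, the scale on which different genes can be compared, the subunits spanned a wide range of levels in wild-type libraries. Atp5b, the catalytic beta subunit of ATP synthase, stood highest at 709 ± 66.0 CPM per kilobase (SD, n = 6), followed by Cox4i1, a regulatory subunit of complex IV, at 563 ± 69.7, Cox6c at 513 and Atp5h, a stalk subunit of ATP synthase, at 511. Cox4i1, Cox6c and Atp5h did not differ by more than the spread of Cox4i1 between libraries. In complex I the highest was the accessory subunit Ndufa5 at 244 ± 32.5 CPM per kilobase, in complex II the flavoprotein Sdha at 198 ± 8.60, and in complex III the hinge protein Uqcrh at 339 ± 37.9. The median over the subunits in general use was 103 CPM per kilobase in complex I, 88.3 in complex II, 169 in complex III, 215 in complex IV and 213 in complex V. The lowest was Ndufab1, the mitochondrial acyl carrier protein, at 5.16 CPM per kilobase, where the transcript length used was 3479 bases. The 7 assembly factors of complex I ranged from 2.81 (Ndufaf6) to 30.2 (Ndufaf7) CPM per kilobase. Lengths are medians of the annotated coding transcripts of a gene that match a RefSeq mRNA, or of all its coding transcripts where none matches. A gene that used a shorter or longer form here would move on this scale. So could a gene whose reads also match other genes. Of the 50-base windows of the transcript, 50.5% of Atp5h, 21.1% of Cox6c, 68.5% of Atp5l and 87.4% of Atp5g2 occurred in other genes as well. The share was 0.857% for Atp5b and 0% for Cox4i1. The order of these genes and the median of complex V are therefore less certain.

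**Figure D2:**
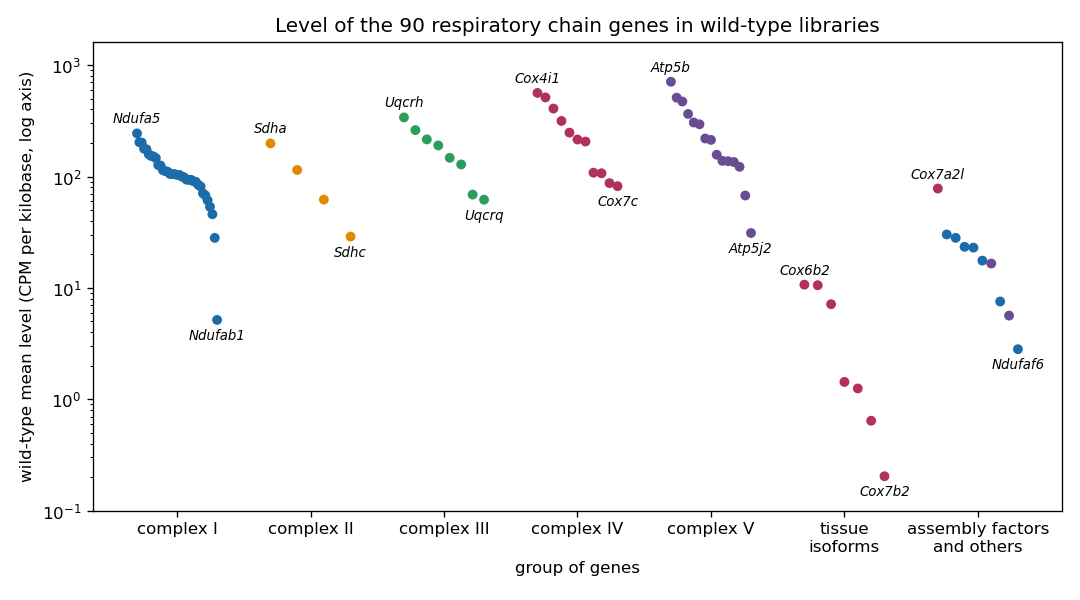
Wild-type mean level of each of the 90 genes in CPM per kilobase of transcript (log axis), by complex for subunits in general use and apart for tissue isoforms and for assembly or associated factors; colour gives the complex, and the highest and lowest gene of each group are named. Subunits in general use lie between 5.16 and 709 CPM per kilobase, and the tissue isoforms between 0.204 and 10.7.

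The start regions of these genes are known for binding sites of a few activators, among them NRF1 (nuclear respiratory factor 1) and YY1, that tie nuclear genes to mitochondrial content. Windows from 250 bases before to 50 bases after the RefSeq start (GRCm38.p6, the build also called mm10) were held for 75 of the 90 genes, 81 windows in all. The core of the NRF1 motif, read as GCGCA, any base and GCGC on either strand, stood in 19 of the 81 windows (23.5%) and in 7.84% of the 17339 windows of all genes tested. The YY1 letters AAGATGGC stood in 14.8% beside 3.56%. The ETS letters CCGGAAGT, as bound by GABP (also called NRF2), were in 6.17% beside 6.28%, and the Sp1 letters GGGGCGGGG in 16% beside 18.6%. By complex, the NRF1 letters were in 9 of 39 windows of complex I, 2 of 3 of complex II, 1 of 5 of complex III, 1 of 14 of complex IV and 6 of 20 of complex V, and in 0 of 4 windows of tissue isoforms. These shares count windows and not genes, and the windows of a gene with several starts can overlap. The NRF1 match of Ndufa5 and the YY1 match of Atp5sl are each counted in more than 1 window. A match is a stretch of letters and not a measured binding site. Printed here are the 250 bases before the start of a gene from each complex with a match there. In each complex the window with the most matches in these bases was taken, and on a tie that of the gene with the highest wild-type level. The numbers of matches printed are thus the highest and not typical ones. The sequences are written 5′ to 3′ on the gene's strand with the NRF1 letters in capitals. The window of the complex III gene with a match, Uqcrc1, holds its matches after the start. They are Ndufb4 (complex I, chr16:37654369-37654618, minus strand) with 3 matches, Sdha (complex II, chr13:74350241-74350490, minus strand) with 3, Cox6a1 (complex IV, chr5:115348959-115349208, minus strand) with 2, and Atp5h (complex V, chr11:115419920-115420169, minus strand) with 1.
Ndufb4: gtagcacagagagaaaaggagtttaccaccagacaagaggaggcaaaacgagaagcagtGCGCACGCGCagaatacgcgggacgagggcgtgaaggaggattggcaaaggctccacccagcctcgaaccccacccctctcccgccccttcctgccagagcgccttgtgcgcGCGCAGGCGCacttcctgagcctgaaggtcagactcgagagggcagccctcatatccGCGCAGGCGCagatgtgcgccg
Sdha: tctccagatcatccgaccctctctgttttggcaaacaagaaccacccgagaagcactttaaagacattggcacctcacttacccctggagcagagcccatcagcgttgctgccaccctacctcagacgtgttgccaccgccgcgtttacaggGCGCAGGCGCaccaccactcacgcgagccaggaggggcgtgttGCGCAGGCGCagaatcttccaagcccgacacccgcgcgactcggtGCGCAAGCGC
Cox6a1: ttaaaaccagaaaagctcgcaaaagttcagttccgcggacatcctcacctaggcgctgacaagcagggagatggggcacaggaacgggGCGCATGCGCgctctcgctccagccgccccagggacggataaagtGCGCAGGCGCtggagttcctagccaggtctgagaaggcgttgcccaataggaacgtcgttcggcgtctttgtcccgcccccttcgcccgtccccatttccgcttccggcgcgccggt
Atp5h: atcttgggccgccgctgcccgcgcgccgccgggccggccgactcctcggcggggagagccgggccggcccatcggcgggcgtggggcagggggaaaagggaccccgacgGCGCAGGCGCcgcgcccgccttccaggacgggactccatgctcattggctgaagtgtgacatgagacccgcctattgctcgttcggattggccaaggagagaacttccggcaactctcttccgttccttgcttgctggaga
The 4 genes printed above did not stand apart in the comparison of genotypes. Their log2 fold changes were -0.06 for Ndufb4, an accessory subunit of the membrane arm of complex I, 0.04 for Sdha, 0.06 for Cox6a1 and 0.10 for Atp5h, with standard errors of 0.10, 0.06, 0.13 and 0.09.

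Complex I, the entry point for NADH, had a median log2 fold change of 0.05, with 35 of its 42 genes above 0 and 0 called by edgeR. All 7 core subunits, among them the carriers of the flavin and the iron-sulfur clusters, were above 0, from 0.03 (Ndufs7) to 0.09 (Ndufs8). Of the 28 accessory subunits 23 were above 0, and of the 7 assembly factors 5 were. Ndufa5 (Entrez 68202, chr6:24518662-24527690) ran from 126 to 176 CPM in wild-type libraries (median 137) and from 105 to 165 CPM in Fmr1-/y libraries (median 151). Its ranges overlapped, its mean was 99.1% of wild-type (95% interval 85.0% to 116%), and its log2 fold change, -0.01, had either sign depending on the library left out. Ndufc1, a small accessory subunit, ran from 28.0 to 40.3 CPM (median 32.9) and from 25.6 to 35.8 CPM (median 32.6), with a log2 fold change of -0.06. Ndufaf2, a chaperone of late complex I assembly, ran from 15.03 to 22.7 CPM (median 19.5) and from 15.3 to 19.9 CPM (median 18.8), with a log2 fold change of -0.08. Both were among the 5 genes below 0 with the smallest p, and the levels of the genotypes overlapped in both.

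Complex II, succinate dehydrogenase, is the only complex encoded entirely in the nucleus and also an enzyme of the citric acid cycle. All 4 of its genes had a log2 fold change above 0, with a median of 0.06, and none was called. Sdha (Entrez 66945, chr13:74322255-74350240), which carries the flavin, ran from 537 to 605 CPM in wild-type libraries (median 574) and from 530 to 634 CPM in Fmr1-/y libraries (median 601). Its interval was among the tightest of the 90 genes, 94.4% to 111% of wild-type. The iron-sulfur subunit Sdhb ran from 117 to 154 CPM (median 126) and from 117 to 148 CPM (median 138), with a mean of 104% of wild-type. Sdhc (Entrez 66052, chr1:171129157-171150640) ran from 81.9 to 104 CPM (median 92.4) and from 86.0 to 120 CPM (median 102), at 111% of wild-type (95% interval 99.4% to 125%), a log2 fold change of 0.15 with a standard error of 0.08 and an adjusted p of 0.650 in edgeR. Sdhd ran from 67.8 to 84.8 CPM (median 76.1) and from 68.1 to 89.5 CPM (median 83.7), at 105% of wild-type. In all 4 genes the wild-type and Fmr1-/y ranges overlapped.

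Complex III, which hands electrons from coenzyme Q to cytochrome c, had 8 of 8 genes that match the symbol rule above 0 and a median log2 fold change of 0.09, with 0 called. Of its core subunits, Uqcrc1, Uqcrc2 and Uqcrfs1, the last being the Rieske iron-sulfur protein, had values of 0.07, 0.05 and 0.11. Cyc1 (cytochrome c1), a core subunit outside the symbol rule, was at 0.08. Uqcrh (Entrez 66576, chr4:116066965-116075070), an acidic subunit that helps cytochrome c to dock, ran from 161 to 210 CPM in wild-type libraries (median 182) and from 176 to 228 CPM in Fmr1-/y libraries (median 219). This was 112% of wild-type (95% interval 99.1% to 127%), with a log2 fold change of 0.16, a standard error of 0.08 and an adjusted p of 0.662 in edgeR. The 4 highest Fmr1-/y libraries lay above the highest wild-type library, and the other two lay inside the wild-type range.

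Complex IV, cytochrome c oxidase, reduces oxygen to water. Its 11 nuclear subunits in general use had a median log2 fold change of 0.06 with 10 of 11 above 0, from 0.00 for Cox5a to 0.12 for Cox7b. Cox4i1 (Entrez 12857, chr8:120668225-120674209) ran from 377 to 496 CPM in wild-type libraries (median 409) and from 382 to 515 CPM in Fmr1-/y libraries (median 473), at 108% of wild-type (95% interval 94.5% to 123%). Cox7b, one of 3 genes of the set on the X chromosome, ran from 96.4 to 123 CPM (median 104) and from 103 to 127 CPM (median 121), at 108% of wild-type. Cox6a1 and Cox8a were the most variable subunits of this group, at 118 ± 26.5 and 118 ± 27.1 CPM in wild-type libraries, and their log2 fold changes of 0.06 and 0.03 had either sign depending on the library left out. Cox7a2l, which joins complexes III and IV into supercomplexes, was at 86.0 ± 8.44 CPM in wild-type libraries and 89.7 ± 4.52 CPM in Fmr1-/y libraries. The wild-type and Fmr1-/y ranges of each of these genes overlapped.

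Complex V, with Atp5s and Atp5sl counted in by symbol, had a median log2 fold change of 0.08 with 15 of 17 genes above 0, and again 0 were called. The 6 genes counted in the F1 part, which binds nucleotides, were all above 0 with a median of 0.06. They include Atp5o, a peripheral stalk subunit that sits on F1. The 9 genes counted in the membrane part with its stalks were also all above 0, with a median of 0.09. Atp5b (Entrez 11947, chr10:128083307-128090388) ran from 1249 to 1531 CPM in wild-type libraries (median 1311) and from 1280 to 1524 CPM in Fmr1-/y libraries (median 1475), at 105% of wild-type (95% interval 94.9% to 116%). Atp5g1, Atp5g2 and Atp5g3 encode the same mature c subunit of the rotor with different import signals. Atp5g1 (Entrez 11951, chr11:96072793-96075694) ran from 163 to 193 CPM (median 180) and from 170 to 225 CPM (median 203), with a log2 fold change of 0.15, a standard error of 0.07 and an adjusted p of 0.633 in edgeR. Atp5g2 ran from 91.7 to 115 CPM (median 98.2) and from 89.2 to 119 CPM (median 108), and Atp5g3 from 239 to 297 CPM (median 255) and from 243 to 303 CPM (median 294), with log2 fold changes of 0.07 and 0.10.

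The 2 genes below 0 in this complex were those that are no subunits in spite of their symbols. Atp5s (Entrez 68055, now Dmac2l, chr12:69724913-69744665), once taken for a coupling factor of ATP synthase, ran from 7.44 to 9.44 CPM in wild-type libraries (median 8.32) and from 6.54 to 8.08 CPM in Fmr1-/y libraries (median 7.43). Its log2 fold change was -0.19 with a standard error of 0.10 and an adjusted p of 0.693 in edgeR. Atp5sl (now Dmac2), which takes part in the assembly of the distal membrane arm of complex I, ran from 29.2 to 34.7 CPM (median 31.9) and from 28.1 to 34.9 CPM (median 29.9), with a log2 fold change of -0.06.

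The genes varied together from library to library, in both genotypes. For each gene the log2 CPM of a library was set against its mean over the 12 libraries, and the median over the 90 genes was taken. It was 0.18 in wild-type replicate 1 and 0.14 in wild-type replicate 6, and -0.19, -0.07, -0.13 and -0.10 in wild-type replicates 2 to 5. In Fmr1-/y libraries it was 0.12, 0.17, 0.10 and 0.09 in replicates 1, 2, 5 and 6, and -0.11 and -0.18 in replicates 3 and 4. High libraries, with all 5 complexes above their mean, thus numbered 2 of 6 in wild-type and 4 of 6 in Fmr1-/y mice, and the low ones had all 5 complexes below. The span between the highest and the lowest library was 0.37 on the log2 scale, against a difference between the genotype means of 0.06. Over the 73 subunits in general use, the median correlation between pairs of genes was 0.852 across the 12 libraries, computed on deviations from the genotype means. For the 6 complex I assembly factors of at least 10 CPM it was 0.449.

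The same swing was present in other genes with short transcripts. The median transcript of the 90 genes was 838 bases long, beside 2834 bases over the genes tested, and 54 of the 90 were at or under 1000 bases. The 429 other genes at or under 1000 bases and of at least 10 CPM swung by 0.34 in the same libraries, were above 0 in 72.5% of cases with a median log2 fold change of 0.04, and had a median pairwise correlation of 0.577. The 3937 other genes over 1000 and up to 3000 bases swung by 0.14, with 60% above 0 and a median of 0.02, and the 5115 other genes over 3000 bases swung by 0.12 with 37.5% above 0 and a median of -0.03. The 36 respiratory chain genes over 1000 bases swung by 0.30, and 32 of them (88.9%) were above 0 with a median of 0.05. With the swing of the other short genes as a covariate in edgeR, an alternative chosen after seeing the data, 64 of the 90 genes lay above 0 and the median was 0.03. The part of transcript length, RNA quality or library preparation in the swing was not tested, and the lanes on which the libraries were sequenced, 4 to a lane, are not given per library in the sources used here.

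**Figure D3:**
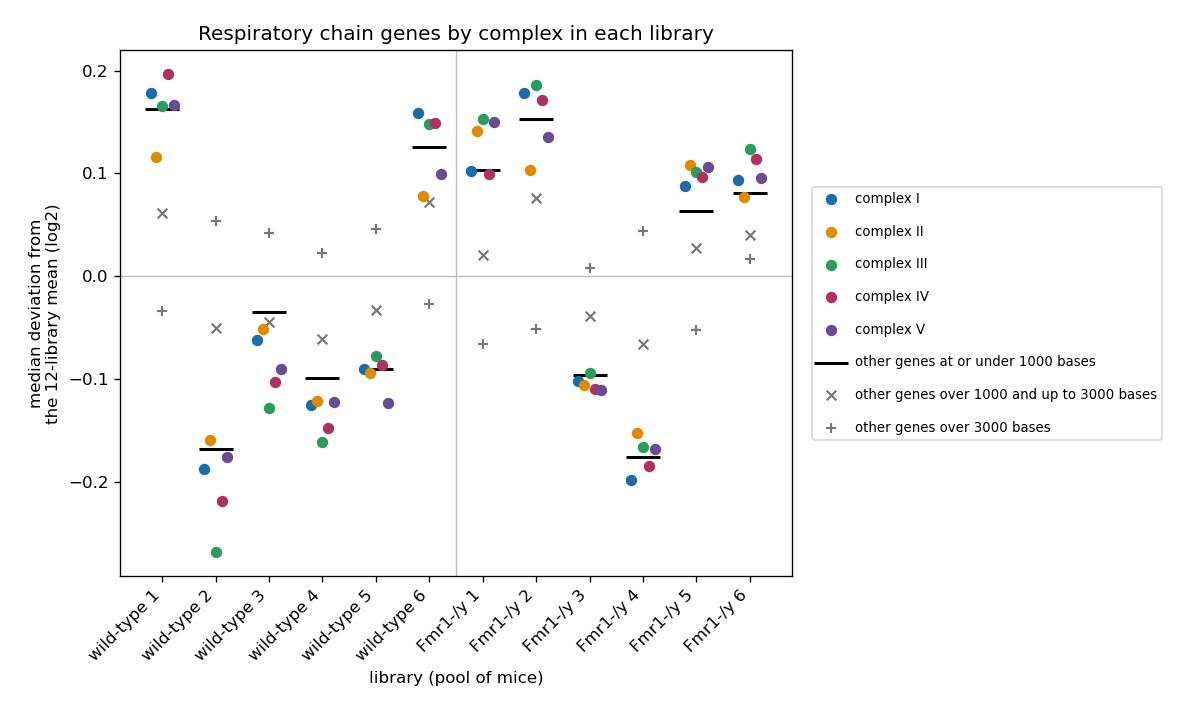
Median deviation from the 12-library mean (log2) of the genes of each complex (coloured points, without tissue isoforms) in each library, with the median of other genes at or under 1000 bases (black bars), over 1000 and up to 3000 bases (crosses) and over 3000 bases (plus signs). The 5 complexes lie together in every library, between -0.27 and 0.20, close to the other short genes, and high and low libraries occur in both genotypes.

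Each gene was then set against the median of the subunits in general use, itself left out, over the 12 libraries. The correlation had a median of 0.913 over the 90 genes and exceeded 0.8 for 67 of them. Among 9593 other genes of at least 10 CPM it exceeded 0.8 for 12.9%, and among the 429 short ones for 54.1%. The median was 0.918 for complex I, 0.857 for complex II, 0.935 for complex III, 0.948 for complex IV and 0.932 for complex V. Atp5k, the e subunit of ATP synthase, followed the others most closely at 0.981, followed by Ndufb10 at 0.981 and the core subunit Ndufv2 at 0.980. Among the subunits in general use the lowest were Ndufb2 at 0.539, Cox8a at 0.671, Ndufa10 at 0.719 and Cox6a1 at 0.730. The assembly factor Ndufaf4, at 27.4 CPM in wild-type libraries, had a correlation of -0.32. Atp5s and Atp5sl were at -0.25 and -0.02. The tissue isoforms had a median of 0.154, with 0 of 7 above 0.8.

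**Figure D4:**
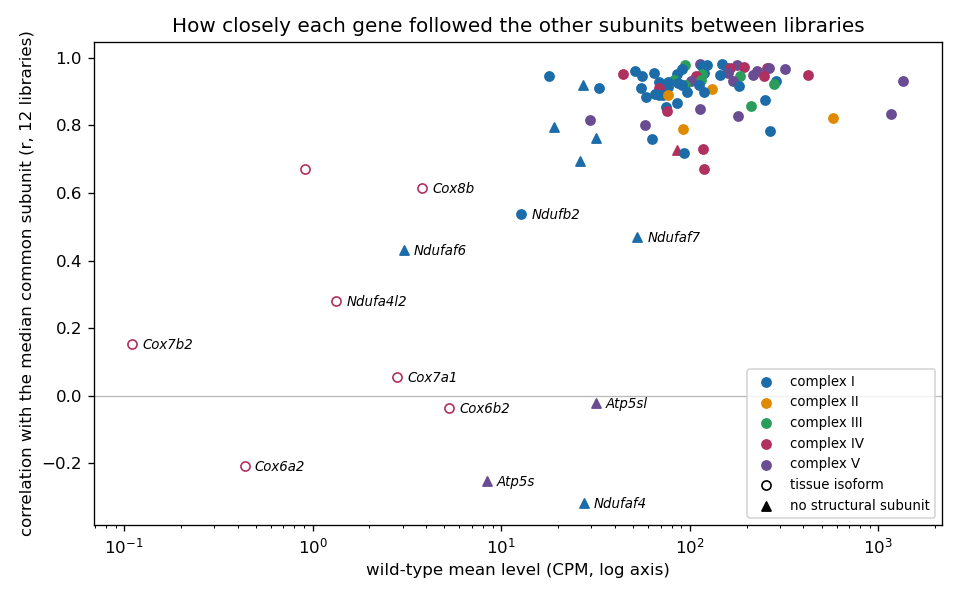
Correlation of each of the 90 genes with the median of the other subunits in general use over 12 libraries (deviations from the genotype means), against its wild-type mean level in CPM (log axis); open points are tissue isoforms and triangles are genes that encode no structural subunit. Of the points 67 lie above 0.8, and Ndufaf4, Atp5s, Cox6a2, Cox6b2 and Atp5sl lie below 0.

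Several complex IV subunits have isoforms that mark other tissues or cell types. So has Ndufa4, which was once assigned to complex I and is now counted in complex IV. In wild-type libraries the common form exceeded the isoform per kilobase by 20.3 times for Cox8a over Cox8b, 29.5 times for Cox6b1 over Cox6b2, 34.7 times for Cox7a2 over Cox7a1, 285 times for Ndufa4 over Ndufa4l2, 321 times for Cox6a1 over Cox6a2, 450 times for Cox4i1 over Cox4i2 and 532 times for Cox7b over Cox7b2. Cox6a2, the heart and muscle form of VIa, had 0 reads in 1 Fmr1-/y library, which allows up to 3, and Cox7b2, a testis form, reached at most 0.271 CPM in wild-type libraries and 0.277 CPM in the Fmr1-/y ones.

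The 7 tissue isoforms had the largest fold changes of the set and also the widest errors, with a median log2 fold change of 0.29 and 6 of 7 above 0. Cox7a1 (Entrez 12865, chr7:30184171-30186030), the heart and skeletal muscle form of VIIa, ran from 2.28 to 3.62 CPM in wild-type libraries (median 2.78) and from 2.62 to 4.96 CPM in Fmr1-/y libraries (median 3.63). Of the Fmr1-/y libraries 3 lay above the highest wild-type library and 3 inside the wild-type range. The log2 fold change was 0.42 with a standard error of 0.17 (134% of wild-type, 95% interval 104% to 173%), and the adjusted p in edgeR was 0.539, with 0.388 to 0.853 over the alternative settings. Ndufa4l2 (Entrez 407790, chr10:127509274-127517154), a hypoxia-induced relative of Ndufa4, ran from 0.456 to 1.93 CPM (median 1.43) and from 1.31 to 3.14 CPM (median 1.99), with 4 Fmr1-/y libraries above the highest wild-type library. The log2 fold change was 0.66 with a standard error of 0.28 (159% of wild-type, 95% interval 105% to 238%) and an adjusted p of 0.555 in edgeR, with 0.387 to 0.853 over the alternative settings.

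The other isoforms were spread more widely within the genotypes. Cox8b, a heart and muscle form, ran from 2.66 to 4.77 CPM in wild-type libraries (median 3.81) and from 2.39 to 8.08 CPM in Fmr1-/y libraries (median 4.79), with a log2 fold change of 0.44, a standard error of 0.23 and an adjusted p of 0.690 in edgeR. Cox6b2, a testis form, ran from 4.32 to 6.99 CPM (median 4.85) and from 3.925 to 9.41 CPM (median 5.94), with a log2 fold change of 0.26. Cox4i2, an oxygen-responsive form known from lung, ran from 0.507 to 1.39 CPM (median 0.922) and from 0.709 to 1.46 CPM (median 1.01), with a log2 fold change of 0.21 and a standard error of 0.27. Cox7b2 had a log2 fold change of 0.29 with a standard error of 0.74, and Cox6a2 one of -0.40 with a standard error of 0.67. In all 7 isoforms the ranges of the genotypes overlapped. Single libraries moved these values by over 1.5 times. Without Fmr1-/y replicate 1 the log2 fold change was 0.26 for Cox8b and 0.11 for Cox6b2, the lowest of their values with a library left out. That of Cox4i2 ran from 0.09 without wild-type replicate 5 to 0.38 without wild-type replicate 1. That of Cox6a2 ran from -0.88 without Fmr1-/y replicate 2 to -0.13 without Fmr1-/y replicate 5, and that of Cox7b2 from -0.05 without Fmr1-/y replicate 2 to 0.77 without wild-type replicate 4.

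The common partners of these isoforms had smaller values. Cox6b1 ran from 169 to 224 CPM in wild-type libraries (median 187) and from 179 to 232 CPM in Fmr1-/y libraries (median 219), with a log2 fold change of 0.11. Ndufa4 ran from 210 to 284 CPM (median 248) and from 238 to 288 CPM (median 279.8), with a log2 fold change of 0.11. Cox7a2, the partner of Cox7a1, ran from 146 to 187 CPM (median 158) and from 144 to 181 CPM (median 176), with a log2 fold change of 0.03.

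Markers of some other cell types also had log2 fold changes above 0. In the brain, Cox4i2 and Ndufa4l2 are known as transcripts of pericytes. Of 8 pericyte markers, a list added after the values of these isoforms were seen, 7 were above 0 with a median log2 fold change of 0.13, and their summed level was 110 to 176 CPM in wild-type libraries and 134 to 233 CPM in Fmr1-/y libraries. Most of that sum was Vtn, at 87.3 ± 19.3 CPM and 113 ± 27.9 CPM (SD, n = 6 each), and without it the other 7 summed to 45.7 to 64.6 CPM and 51.6 to 77.5 CPM. The 4 endothelial markers were all above 0 with a median of 0.36, and a summed level of 22.1 to 33.2 CPM and 27.4 to 42.9 CPM. The 4 choroid plexus markers were all above 0 with a median of 0.43, and the 5 astrocyte markers were all above 0 with a median of 0.23, while the 6 CA1 markers were all below 0 with a median of -0.10. None of these markers was called by edgeR or DESeq2, and none was listed at 0 in all libraries. At an unadjusted p under 0.05 in edgeR, 3 of 4 choroid plexus, 3 of 5 astrocyte and 2 of 4 endothelial markers were higher. So were 1 of 8 pericyte, 1 of 3 CA2 and 1 of 3 CA3 markers. Of the 6 CA1 markers 2 were lower, Wfs1 at 82.9% and Mpped1 at 89.3% of wild-type. Over all genes tested, 7.96% had such a p. The lists of other cells had medians at or under 0.02, with 1 of 5 oligodendrocyte markers (median -0.15), 2 of 7 interneuron markers (-0.09), 0 of 3 dentate granule markers (-0.18), 1 of 3 CA3 markers (-0.05), 2 of 3 CA2 markers (0.02) and 3 of 5 microglia markers (0.01) above 0. The part of other cell types in the values of the isoforms and of the subunits was not tested.

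**Figure D5:**
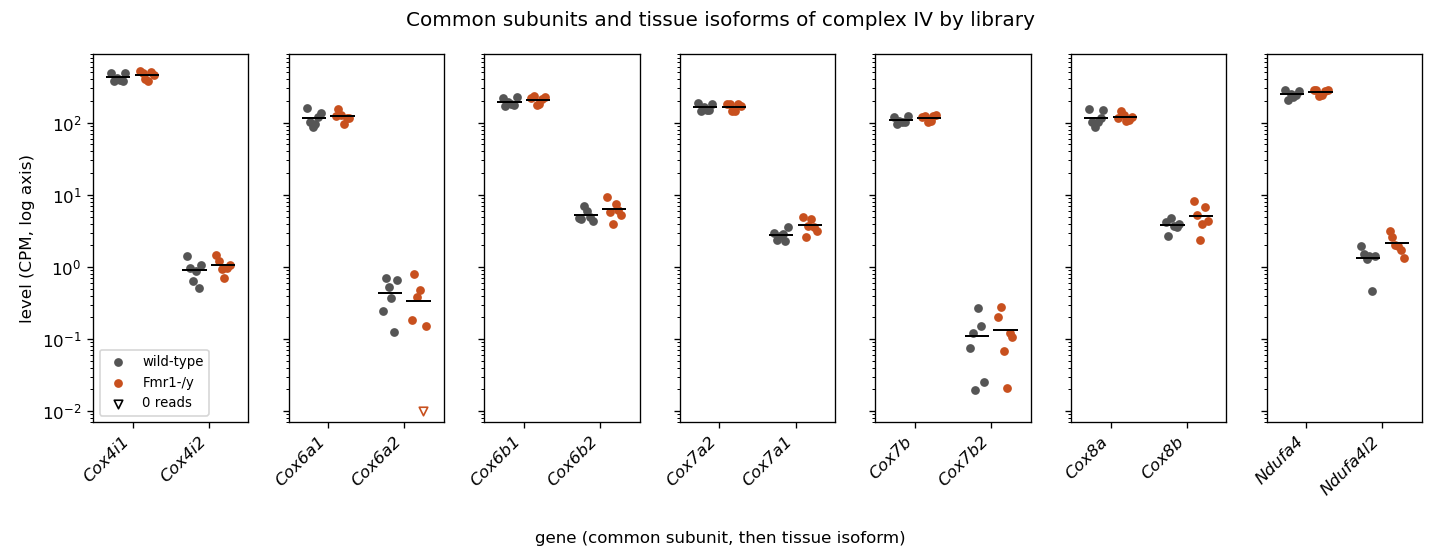
Level of 7 common complex IV subunits and of their tissue isoforms in each library (CPM, log axis), wild-type in grey and Fmr1-/y in orange, with black lines at the means of 6 libraries and an open triangle, drawn at 0.01 CPM, for a library with 0 reads. The common forms lie between 86.7 and 515 CPM and the isoforms at or below 9.41 CPM, and the genotypes overlap in each of the 14 genes.

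Genes outside the symbol rule that work in or next to the respiratory chain were compared in the same way, and edgeR and DESeq2 each called 0 of them. The first list held 6 measured genes. They were cytochrome c, the complex III subunit cytochrome c1, the electron transfer flavoproteins with their oxidoreductase, and the heme lyase Hccs. All 6 were above 0 with a median log2 fold change of 0.10. Of these Etfb, the beta chain of the electron transfer flavoprotein, had the smallest p, at 73.5 ± 5.82 CPM in wild-type libraries and 84.9 ± 10.6 CPM in Fmr1-/y libraries, a log2 fold change of 0.21 with an adjusted p of 0.499 in edgeR. Of 18 citric acid cycle and pyruvate genes 15 were above 0 with a median of 0.05, led by Ogdh (oxoglutarate dehydrogenase) at 279.6 ± 9.70 and 306 ± 19.0 CPM, a log2 fold change of 0.13 with an adjusted p of 0.542. The lower gene with the smallest p was Sucla2, at -0.04. Of 12 genes of coenzyme Q synthesis 10 were above 0 with a median of 0.05, from Coq4 at 0.14 on the higher side to the kinase-like Adck3 at -0.13 on the lower side, ranked by p. The 38 measured assembly factors outside the symbol rule had 23 genes above 0 and a median of 0.01, close to all genes tested. Among them Ttc19, a complex III factor, was at 64.2 ± 5.53 CPM in wild-type libraries and 71.1 ± 5.76 CPM in Fmr1-/y libraries (log2 fold change 0.15), and Coa7, a complex IV factor, at 28.9 ± 2.68 and 25.7 ± 1.82 CPM (log2 fold change -0.17, adjusted p of 0.611 in edgeR). The 14 regulators of mitochondrial biogenesis had 7 genes above 0 and a median of 0.00. Ppargc1a, the coactivator PGC-1alpha, was at 49.6 ± 7.27 CPM in wild-type libraries and 40.9 ± 8.57 CPM in Fmr1-/y libraries, a log2 fold change of -0.28 with an adjusted p of 0.621 in edgeR. Esrra, a nuclear receptor that works with it, was at 57.8 ± 3.28 and 61.1 ± 6.63 CPM. At an unadjusted p under 0.05 these 5 lists held 2 higher genes (Etfb, Ogdh) and 2 lower ones (Coa7, Ppargc1a) among 88, beside 7.96% of all genes tested.

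Reads of some respiratory chain genes could not be assigned with certainty, since many of these genes have processed pseudogenes. For 36 of the 90 genes some 50-base windows of the transcript, the read length, occurred also in another GENCODE gene, and for 11 more than 20% of the windows did. The share was 87.4% for Atp5g2, 68.5% for Atp5l, 53% for Cox7c, 50.5% for Atp5h, 43.2% for Uqcrb, 37% for Ndufb4 and 35.8% for Ndufs3. It was 11.5% for Atp5g1, 12.3% for Cox6a1, 17.8% for Cox7a2l and 7.83% for Uqcrh, and 0% for Sdha, Cox4i1, Cox7a1 and Ndufa4l2. Exons of another annotated entry on the same strand covered a part of Atp5o, Ndufb2, Ndufb8 and Ndufb9, and for Atp5o that entry carries the same symbol. Their levels are therefore uncertain, while a comparison of genotypes within a gene uses the same counting in all libraries. For Ndufs5, listed at 0 reads throughout, 41.2% of the windows occurred in the pseudogene BC002163, and its level is not given here.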

How the data were processed

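Members and gene lists were chosen with earlier results of these data known. The authors prepared stranded libraries of polyadenylated, HA-precipitated RNA, sequenced single reads of 50 bases, aligned them with TopHat2 2.1.1 (Bowtie2 2.2.8) to mm10, dropped alignments with more than 3 mismatches and counted with HTSeq 0.6.1p1 on the opposite strand. The deposited values are raw counts per gene, without normalization.

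Genes with at least 15 reads in total were kept and compared in R 4.3.3 with edgeR 4.0.16 (TMM, quasi-likelihood test on all 12 libraries, no covariate, Benjamini-Hochberg over 17823 genes). Standard errors are the log2 fold change divided by the square root of F. Alternatives were DESeq2 1.42.0, limma 3.58.1 voom, other scalings and read filters, a robust fit, a replicate block, 1 surrogate variable (sva 3.50.0), a short-transcript covariate and each library left out. The fits were tested on simulated counts. Correlations and deviations used log2 CPM with a prior count of 2. Transcript lengths and pseudogene windows came from GENCODE M21, found for 90 of 90 members and 91.2% of genes tested, and coordinates and promoters from RefSeq. Named are members with the smallest p in each direction, the highest per complex, the Sdh and Atp5g genes, and tissue isoforms with their partners. Same-numbered libraries of the genotypes are not described as pairs. Counts limit precision by depth, and floors of 3 reads cover counting error only. Other data of the study were not analysed here. The values of 1 gene are not reported here.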

Additional observations from a re-analysis of the deposited data

How the results depend on the processing

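The number of respiratory chain genes past the threshold was 0 under each alternative. The count at an unadjusted p under 0.05, which was 2, became 7 with library totals in place of TMM (a scaling that moved the median of all genes to 0.03 and put 58.1% of them above 0), 5 with the short-transcript covariate chosen after seeing the data, and 0 to 6 with a library left out (0 without Fmr1-/y replicate 1, 6 without wild-type replicate 1 or Fmr1-/y replicate 3). With the replicate number as a block it was 5. In the main fit 7.96% of all genes tested had such a p. That share was not taken in the other settings, so their counts stand without a background. Whether they rose more than those of all genes was not tested. The deviations of same-numbered libraries had a mean correlation of 0.15 over the members, from -0.32 to 0.63 for single pairs, so the numbers were not taken as pairs, and the block changed no call.

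Of 664 comparisons of single named genes 646 kept their direction and side of the threshold, and 18 in 7 genes turned in sign, all at values near 0. With 1 surrogate variable the log2 fold change became -0.00026 for Cox6a1, -0.021 for Cox7a2, -0.0066 for Cox8a and -0.0013 for Sdhb. With the short-transcript covariate it became -0.0088 for Cox7a2, and with library totals 0.0090 for Ndufa5. With a library left out it ran from -0.021 to 0.16 for Cox6a1, -0.049 to 0.77 for Cox7b2, -0.040 to 0.12 for Cox8a, -0.057 to 0.062 for Ndufa5 and -0.11 to 0.0011 for Ndufc1. The widest 95% intervals were those of tissue isoforms, 28.5% to 202% of wild-type for Cox6a2 and 41.2% to 363% for Cox7b2.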

Other observations

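Genes outside the respiratory chain followed its swing over the 12 libraries as well. Ranked by their correlation with the median subunit, those near the top of 9593 genes of at least 10 CPM included Eif3k (a subunit of translation initiation factor 3, 0.987), Drg1 (a GTPase, 0.987), Psmb3 (a proteasome subunit, 0.985) and Eef1b2 (an elongation factor subunit, 0.985). Over the 10 nearest genes the log2 fold changes lay between -0.05 and 0.10, and edgeR called none of them (adjusted p 0.818 to 0.999). This ranking was made after the data were seen. No library of a named gene, of a complex's summed level or of the median deviation stood apart from the other 5 of its genotype by Dixon's criterion at 95% (0 of 70 groups, where 3.5 would be expected by chance).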
